A study of Mus musculus with 17 samples.

Results

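Expression of mmu-miR-99a, mmu-miR-99b, mmu-miR-100, mmu-miR-125a-5p and mmu-miR-125b-5p was followed in mouse kidneys after warm ischemia reperfusion injury (IRI). The 5 miRs were chosen by name, as the guide strands of the miR-99, miR-100 and miR-125 families, out of 569 mature mouse miRs on the array. All 5 were among the 162 miRs that reached a normalized intensity of 200 in at least 1 of the 17 samples and were therefore tested. The other strands of the same hairpins were kept as a separate list.

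Each sample was RNA pooled from 3 mice of the strain labelled C57/BL6, aged 10 to 12 weeks. There were 8 IRI pools (30 minutes of warm ischemia), 8 sham-operated pools and 1 naive pool of unoperated mice, and no group carried a transgene or a deletion. The surgery pools came from 4 days in the first week (days 1, 3, 5 and 7) and 4 later days (10, 14, 21 and 30), with 1 pool per surgery and day. The labels give female mice, whereas the methods of the study give male mice. On each of 8 arrays the IRI pool, in the dye Cy3, shared the array with that day's sham pool, in Cy5. The naive pool, in Cy3, had an array to itself. The dyes were not swapped, so a difference between surgeries that is equal on all days and a difference between dyes cannot be told apart. Fewer cells of a type and less RNA per cell cannot be told apart in whole kidney RNA either.

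miRs are short RNAs that guide Argonaute proteins to messenger RNAs, mainly through pairing of the seed near their 5′ end, and lower the output of those messengers. miR-99 and miR-100 are an old family whose known targets include the growth kinase mTOR. miR-125 is the vertebrate relative of the worm miR lin-4, and is known for its part in differentiation, blood cell formation and the restraint of p53. Genes of the families lie beside let-7 genes in clusters that were duplicated in vertebrates.

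The sequences printed here show how close the miRs are to one another, since this bears on what each probe can distinguish. They were taken from the deposited array annotation, and the same sequences were found in RefSeq for 5 of 5 miRs. Capitals mark the seed, bases 2 to 8 from the 5′ end.
mmu-miR-99a: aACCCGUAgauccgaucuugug
mmu-miR-99b: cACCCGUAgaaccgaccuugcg
mmu-miR-100: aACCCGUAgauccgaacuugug
mmu-miR-125a-5p: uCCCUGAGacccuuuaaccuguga
mmu-miR-125b-5p: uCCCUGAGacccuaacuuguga
mmu-miR-10a: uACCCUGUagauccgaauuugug

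miR-99a, miR-99b and miR-100 shared 1 seed, and no other miR on the array had it. miR-125a-5p and miR-125b-5p shared the other seed with 1 further miR of the array, miR-351. Counted from the 5′ end, miR-99a and miR-100 differed by a single substitution, U16A, and were the closest pair among the 5 miRs. Cross-hybridisation between them was not tested. miR-99b differed from miR-99a at A1C, U11A, U16C and U21C. miR-125a-5p was 3 edits from miR-125b-5p. miR-10a is shown because it was 3 edits from miR-100, although the seeds differ.

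In RefSeq (GRCm38.p6) the miRs arose from 3 clusters, and within each cluster all genes lay on the plus strand. Mir99a lay at chr16:77598940-77598961, 732 bases before Mirlet7c-1 and 47339 bases before Mir125b-2 (chr16:77646279-77646300), counted between the starts of the mature miRs. Mir99b lay at chr17:17830194-17830215 and Mir125a, 623 bases on, at chr17:17830817-17830840. Mirlet7e lay between them, and the annotated gene Spaca6 spans all of that cluster. Mir100 lay at chr9:41531437-41531458 and Mir125b-1, 50503 bases on, at chr9:41581940-41581961. These genes and Mirlet7a-2 between them fall within the long non-coding RNA gene Mir100hg. Mature miR-125b-5p is the same from both of its genes, so that its intensity sums the chromosome 9 and chromosome 16 loci.

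The arrays differed in signal. The mean signal over background was 1114 to 1412 in the IRI pools, 525.5 to 1057 in the sham pools and 208.7 in the naive pool, and 124 to 372 of the 569 miRs were above background per sample, with 104 above it in all 17. A miR was taken as above background where its mean over 6 spots passed the median of the empty spots by 3 median absolute deviations. The miRs studied here were above background in every sample, except miR-99a on day 10, in both pools. Their brightest spot, 13702, was below the scanner ceiling of 65535. For day 5 the sample labels give Cy3 to the IRI pool and Cy5 to the sham pool, as for the other days. The header of that array names its channels only A and B. They were assigned to IRI and sham by the processed columns of the authors for that day, which correlated with the scanner channel taken as theirs at 0.998 and 0.999 and with the other at 0.953 and 0.941. With this assignment the ratios of miR-199a-3p (2.25) and miR-155 (2.84) on day 5 had the sign that they had on every other day. Those of miR-192 (0.17) and miR-150 (-0.27) did not, and day 5 was the only day on which miR-192 was above 0 and miR-150 below it. Of the other cell type markers called below by their mean ratio, miR-194 (-0.37), miR-200b (-0.09), miR-199a-5p (0.19) and miR-214 (1.34) kept the sign of that mean on day 5. miR-223 did so as well. The assignment rests on the labels and on these correlations, and not on the markers. The mean ratios that day 5 moves most are given without that day as well.

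Over the 8 days as a whole, the mean ratio of miR-100 passed the threshold among the 162 miRs tested, and those of the other 4 miRs did not. The call of miR-100 rests on the filter, since its level reached 200 only in the IRI pools of days 14, 21 and 30, and with all 569 miRs tested its adjusted p by limma was 0.0617. Its level in the IRI pools was lowest at 135.5 on day 10, had a median of 182.3 and was highest at 293.3 on day 30. In the sham pools it was lowest at 122.0 on day 14, with a median of 144.6 and a highest value of 162.1 on day 3. The IRI pool was above the sham pool of its own day on 8 of 8 days, while the ranges of both surgeries overlapped. The log2 IRI/sham ratio of miR-100 was 0.14, 0.12, 0.09, 0.32 and 0.09 on days 1, 3, 5, 7 and 10, and 0.74, 0.96 and 1.13 on days 14, 21 and 30. The ratio was larger on each of the last 3 days than on any earlier day. In the processed values of the authors the ratios of days 1, 3, 5, 7 and 10 were 0.40, -0.02, 0.25, 0.87 and 0.48, against 1.03, 1.29 and 2.37 on the last 3 days. In those values IRI was above sham on 7 of 8 days. The mean was 0.45 (SE 0.14, n = 8 days, 95% interval 0.12 to 0.78), a 1.36-fold higher level in IRI, with an adjusted p of 0.0389 by limma over 162 miRs. The size of the mean depended on the processing, at 0.80 with the empty-spot median subtracted, 0.80 with median scaling of the channels and 0.83 in the processed values of the authors. The exact sign-flip test over days gave a two-sided p of 0.0078125, the smallest that 8 days allow, and 0.0362 after adjustment over the 162 miRs. That p needs the same sign on all 8 days, and the ratios of days 5 and 10 were within 2 SE over the spots of 0.

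For comparison, 18.5% of the 162 miRs were called higher in IRI in this test and 17.9% were called lower, against 1 and 0 of the 5. A count of 1 in 5 is near this background and is no result about the families. The call was also lost when day 7, 14, 21 or 30 was left out, with means of 0.47, 0.41, 0.38 and 0.35 and adjusted p by limma of 0.0680, 0.0961, 0.0944 and 0.0784. It was lost as well without the arrays of days 10 and 30, at 0.40 (adjusted p 0.102 by limma).

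miR-99a, which differs from miR-100 by 1 base, did not show the same order of the surgeries. Its level in the IRI pools ran from 81.1 on day 10 to 272.3 on day 30, with a median of 190.2. In the sham pools it ran from 87.8 on day 10 to 261.2 on day 5, with a median of 238.0. Both low values were the day 10 pools in which it was not above background, so that the ratio of that day carries no information on its direction. On the other days IRI was below sham, except on days 21 and 30. The mean log2 IRI/sham ratio was -0.17 (SE 0.11, n = 8 days, 95% interval -0.42 to 0.07), with an adjusted p of 0.247 by limma. Without day 10 it was -0.18, with an adjusted p of 0.295 by limma. With the empty-spot median subtracted in place of the normexp background correction, the ratio was -0.50 and passed the threshold (adjusted p 0.0381 by limma). With median scaling of the channels its sign turned, to 0.15, while the median of all 162 miRs moved from -0.04 to 0.15, so that miR-99a then stood at that median.

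miR-99b, processed from the chromosome 17 cluster, had levels that overlapped between the surgeries. Its IRI level was lowest on day 1, at 371.8, had a median of 613.9 and reached 768.2 on day 30. Its sham level was between 442.1 on day 14 and 732.3 on day 5, with a median of 531.6. The ratio lay between -0.59 on day 5 and 0.65 on day 30, and was above 0 on 6 of 8 days. The mean was 0.08 (SE 0.13, n = 8 days, 95% interval -0.22 to 0.37), with an adjusted p of 0.654 by limma, and its sign turned to -0.08 with the empty-spot median subtracted and to -0.01 without day 30. It was 0.17 without day 5 and 0.33 with median scaling of the channels, where the median of all miRs was 0.15. None of these passed the threshold.

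**Figure D1:**
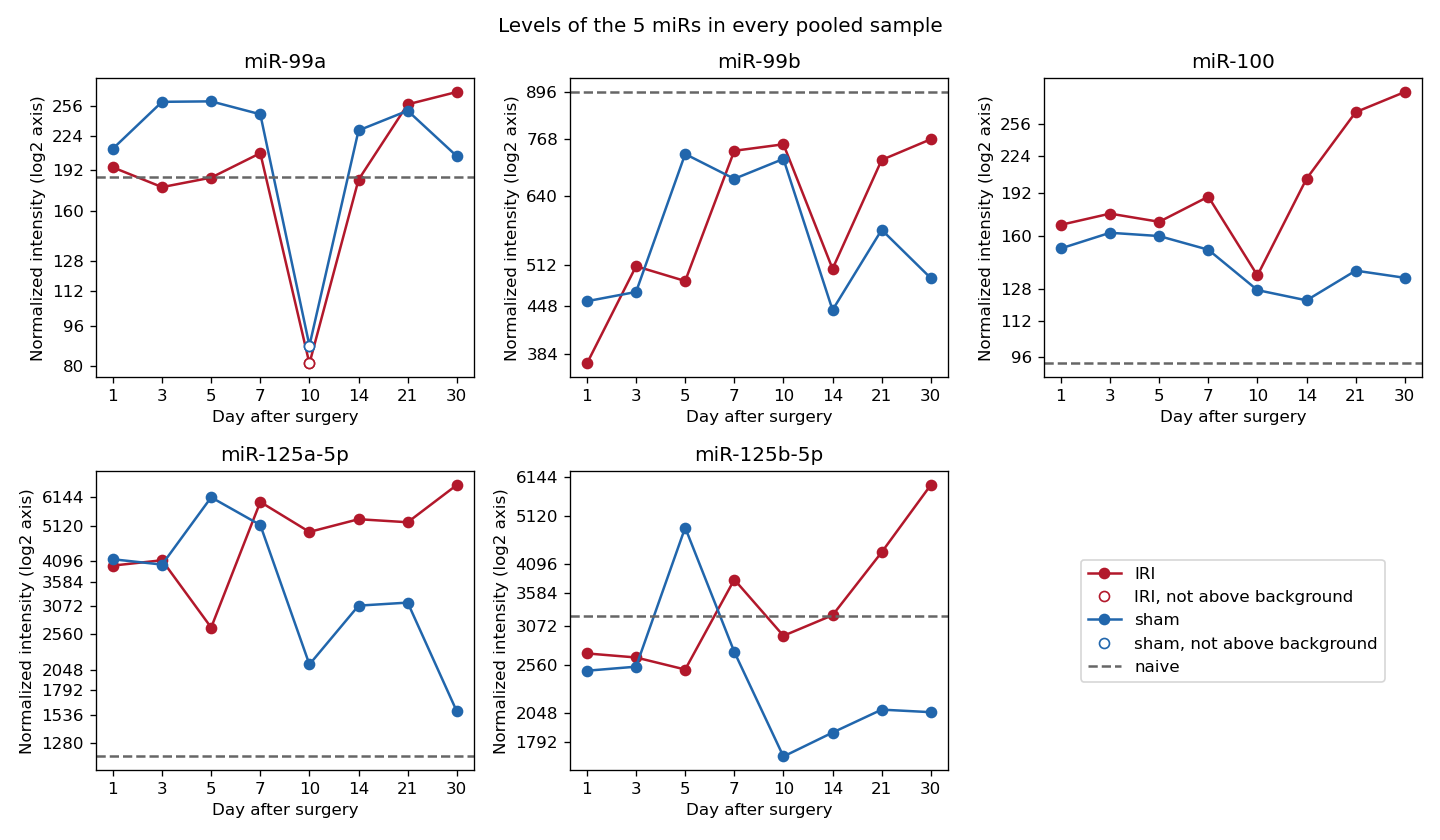
Normalized intensity of each miR (log2 axis, each panel with its own range) against the day after surgery, with the days evenly spaced. Each point is 1 pool of 3 mice, red for IRI and blue for sham, open symbols are pools not above background, and the dashed line is the single naive pool. On day 30 the IRI pool is above the sham pool in all 5 panels, and miR-99a is low in both pools of day 10.

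miR-125a-5p, from the same cluster as miR-99b, had widely varying sham levels. The IRI level was lowest on day 5, at 2676, had a median of 5076 and was highest on day 30, at 6634. The sham level was lowest on day 30, at 1569, with a median of 3566, and highest on day 5, at 6132. The extremes of the surgeries therefore fell on the same days in opposite order. The log2 ratio was -0.06, 0.04, -1.20 and 0.21 on days 1, 3, 5 and 7. It was 1.22, 0.79, 0.74 and 2.08 on days 10, 14, 21 and 30. The mean of 0.48 (SE 0.31, n = 8 days, 95% interval -0.23 to 1.18) did not pass the threshold, with an adjusted p of 0.265 by limma. Without day 5 the mean was 0.72, with an adjusted p of 0.0600 by limma, and without day 30 it was 0.25. The largest ratios, of days 10 and 30, came from the arrays with the dimmest sham channels, in which the mean signal over background of all miRs was 525.5 and 536.6. The scanner signal of miR-125a-5p over background in sham was 788.6 and 632.0 there, and 3279 to 7031 on the other days. Without both arrays, an alternative chosen after seeing the data, the mean was 0.09, with an adjusted p of 0.839 by limma. The part of the dim channels in these ratios was not tested further.

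miR-125b-5p, which shares its seed with miR-125a-5p, had a similar course. Its IRI level was lowest at 2512 on day 5, with a median of 3086 and a highest value of 5925 on day 30. Its sham level was lowest at 1677 on day 10, with a median of 2291 and a highest value of 4860 on day 5. The day 5 sham pool was above all IRI pools but that of day 30. The log2 ratio was 0.12, 0.06, -0.95 and 0.49 on days 1, 3, 5 and 7. It was 0.81, 0.79, 1.06 and 1.52 on days 10, 14, 21 and 30, so that IRI was above sham on 7 of 8 days. The mean was 0.49 (SE 0.24, n = 8 days, 95% interval -0.06 to 1.04), with an adjusted p of 0.150 by limma. Leaving out day 5 raised it to 0.69 and brought it past the threshold (adjusted p 0.0243 by limma). Without the arrays of days 10 and 30 it was 0.26, with an adjusted p of 0.495 by limma. None of the 5 miRs had IRI and sham levels that did not overlap, against 3.09% of all miRs tested.

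**Figure D2:**
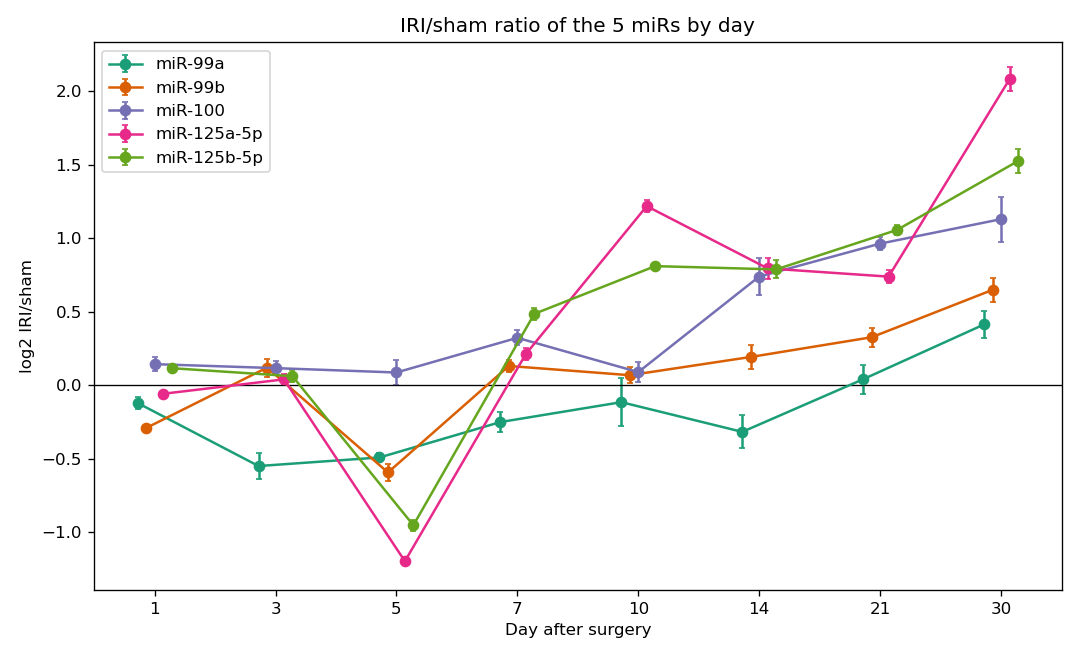
log2 IRI/sham ratio of each miR against the day after surgery, with the days evenly spaced and the points of a day set slightly apart. Bars are the SE over the 6 spots of each array, which cover the array and not the mice. The ratios of miR-125a-5p and miR-125b-5p are -1.20 and -0.95 on day 5 and 2.08 and 1.52 on day 30.

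Of the 40 ratios of a miR and a day, 32 were further from 0 than 2 SE over the spots, as were 71.1% of those of all 162 miRs, and 29 were above 0, against 51.5%. The SD of the ratio over days was 0.31 for miR-99a, 0.38 for miR-99b, 0.43 for miR-100, 0.97 for miR-125a-5p and 0.75 for miR-125b-5p. For 4 of the miRs it was larger than the SD over the spots of any day, and for miR-99a the SD over spots reached 0.40, on day 10. Since each day had 1 pool per surgery, variation between mice and change with time are both in this SD and cannot be told apart.

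The slope of the log2 ratio over log2(day) asked whether IRI and sham moved apart with time, and it does not hold a dye difference of constant size. None of the 5 miRs passed the threshold by limma, against 2.47% of the miRs tested, which were 4 of 162. The slope per doubling of the day was 0.11 (SE 0.07) for miR-99a, with an adjusted p of 0.361 by limma. It was 0.17 (SE 0.07) for miR-99b, 0.21 (SE 0.07) for miR-100, 0.41 (SE 0.16) for miR-125a-5p and 0.33 (SE 0.13) for miR-125b-5p. Their adjusted p by limma were 0.189, 0.138, 0.189 and 0.189, and adjusted exact permutation p over the days lay between 0.214 and 0.411.

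All 5 estimates were above 0, as were 49.4% of those tested. At an unadjusted limma p under 0.05, the slope was upward for 4 of the 5 miRs and for 13.0% of all miRs. IRI was above sham on each of days 14, 21 and 30 for miR-99b, miR-100, miR-125a-5p and miR-125b-5p, 4 of the 5, and for 38.3% of all miRs. These 3 counts were chosen after the values of the miRs had been seen, and support nothing by themselves. The size of the slopes depended on the processing. That of miR-100 was 0.40 with the empty-spot median subtracted and 0.37 in the processed values of the authors. With median scaling of the channels, which moved the median slope of all miRs to 0.11, the slope was 0.24 for miR-99a, 0.32 for miR-99b, 0.34 for miR-100 and 0.50 for miR-125b-5p. None of these passed the threshold. The median slope was 0.21 over the 5 miRs and -0.001 over all 162. Leaving out day 1 moved the slope to 0.26 for miR-99a, 0.68 for miR-125a-5p and 0.56 for miR-125b-5p, none of which passed the threshold, and leaving out day 30 moved that of miR-99a to 0.04. Without the arrays of days 10 and 30, whose sham channels were dim, the slope was 0.23 for miR-125a-5p and 0.04 for miR-99a. The slope of miR-100 passed the threshold when day 1 was left out (0.34, adjusted p 0.0435 by limma) and when the day itself was used (0.04 per day, adjusted p 0.0237 by limma). Both calls are open to the filter in the same way as the mean ratio, since miR-100 reached 200 only in late IRI pools, and with all 569 miRs tested its slope over log2(day) had an adjusted p of 0.410 by limma.

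**Figure D3:**
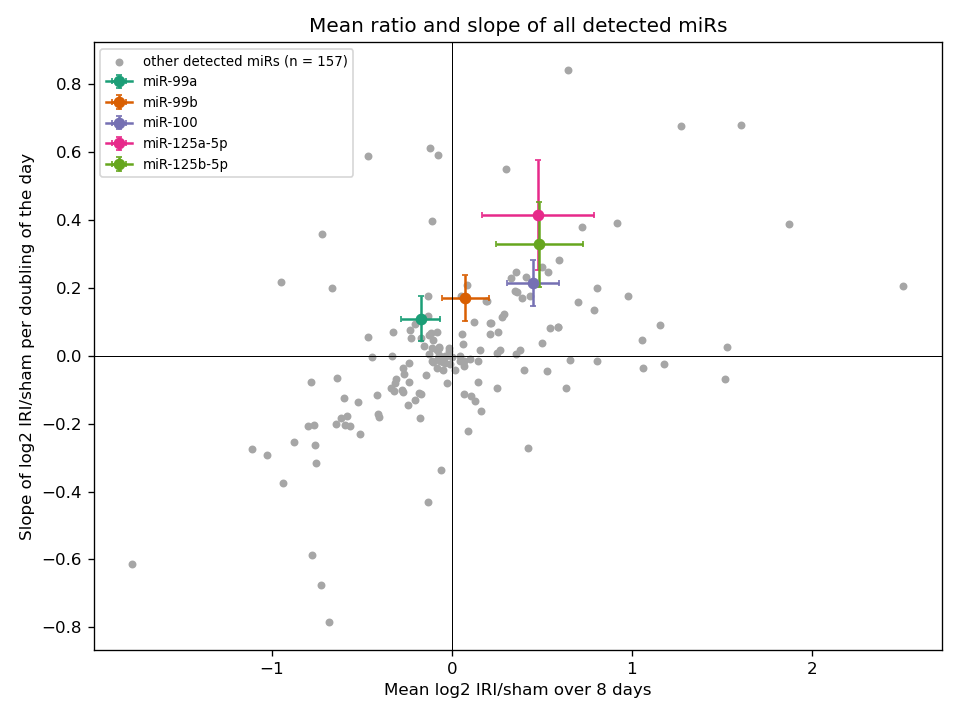
Mean log2 IRI/sham ratio over 8 days (horizontal axis) against the slope of the ratio per doubling of the day (vertical axis) for the 162 miRs tested. Grey points are the other 157 miRs, coloured points the 5 miRs, and bars their SE from limma. All 5 lie above 0 on the vertical axis, with miR-125a-5p highest at 0.41.

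Each surgery was then followed alone over the days, on levels that compare different arrays. None of the 5 miRs passed the threshold in IRI, against 8.64% of the miRs tested, or in sham, against 1.23%. In IRI the slope of the log2 level per doubling of the day was 0.20 for miR-99b (SE 0.06, adjusted p 0.0812 by limma) and 0.20 for miR-125b-5p (SE 0.07, adjusted p 0.0871 by limma). It was 0.15 for miR-100, 0.16 for miR-125a-5p and 0.07 for miR-99a, with adjusted p by limma between 0.229 and 0.777. Without day 1 the IRI slope was 0.24 for miR-100 and 0.25 for miR-125a-5p, and without day 30 it was 0.10 and 0.13. With median centring between arrays that of miR-125a-5p turned to -0.01. None of these passed the threshold. In sham the slope was furthest from 0 for miR-125a-5p, at -0.25 (SE 0.12, adjusted p 0.439 by limma), and lay between -0.12 and 0.03 for the other 4. The sham slope of miR-125a-5p was -0.43 without day 1, -0.15 without day 30, -0.43 with median centring between arrays and -0.52 with median scaling of the channels, and did not pass the threshold in any of these. For miR-125b-5p the IRI slope passed the threshold with the day itself in place of its log2 (0.04 per day, adjusted p 0.0315 by limma). With median centring between arrays it was 0.07 per doubling (adjusted p 0.916 by limma), and without day 30 it was 0.13 (adjusted p 0.286 by limma).

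Against the naive pool, which is a single sample of low signal and allows no test, the order depended in part on the processing. The naive level came from Cy3 alone, whereas the IRI and sham levels were built from the mean of both dyes of an array and its ratio. The sham pools were in Cy5. A difference between dyes is therefore within every fold over naive, and cannot be told apart from surgery. The naive level of miR-125a-5p was 1177, below all 16 surgery pools, and the median was 4.31-fold higher in IRI and 3.01-fold higher in sham. In the values processed by the authors these folds were 2.64 and 2.08, with 15 of 16 pools above naive. The naive level of miR-100, 93.5, was also below all 16, with folds of 1.95 and 1.55, or 1.55 and 1.00 in the processed values of the authors, where 12 of 16 pools were above naive. For miR-99b the naive level of 895.2 was above every surgery pool, with folds of 0.68 and 0.59. This order was not seen in the values of the authors, where the folds were 0.98 and 0.89 and 8 of 16 pools were above naive. The naive level was 186.7 for miR-99a and 3226 for miR-125b-5p, and 4 of 8 IRI pools were above it for each. Of the sham pools, 7 of 8 were above it for miR-99a and 1 of 8 for miR-125b-5p. A median at least 2-fold above naive was seen in IRI for 1 of the 5 miRs and for 19.8% of all miRs, and in sham for 1 of the 5 and for 18.5%.

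The ratios of the 5 miRs varied together over the arrays, as a description. Pearson's r of the log2 ratio over the 8 arrays was 0.96 between miR-125a-5p and miR-125b-5p, which share a seed but not a locus, and 0.93 without day 5. It was 0.90 between miR-99b and miR-125a-5p, which share a cluster, and 0.79 without day 5. Pairs that share neither seed nor cluster were as high, at 0.93 for miR-99b and miR-125b-5p (0.85 without day 5) and 0.80 for miR-99a and miR-125a-5p. Between miR-99a and miR-100, 1 base apart, it was 0.73. It was 0.77 between miR-100 and miR-125b-5p and 0.80 between miR-99a and miR-125b-5p. All of these points share the array, its dyes and its normalization. The levels within a surgery went together less evenly, with r for miR-99a and miR-99b of -0.04 in IRI and -0.34 in sham.

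Among the other tested miRs, those with the ratio most like miR-125a-5p over the 8 arrays were let-7d* (r = 0.94) and miR-151-5p (0.92). For miR-125b-5p they were miR-150 (0.93), known from lymphocytes, and let-7d* (0.90). For miR-99b they were let-7d* (0.92) and miR-150 (0.86). For miR-100 they were miR-342-3p (0.97) and miR-146a (0.96), which is known for feedback on inflammatory signalling. For miR-99a they were miR-27a (0.95) and miR-181a (0.91).

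Of the let-7 miRs encoded in the same clusters, all 3 had a mean ratio below 0, as did miR-99a and none of the other 4. let-7c, between Mir99a and Mir125b-2, had a lower level in IRI, at -0.77 on the log2 scale (SE 0.20, adjusted p 0.0231 by limma). let-7a, 1 of whose genes lies between Mir100 and Mir125b-1, was also lower (-0.57, SE 0.20, adjusted p 0.0490 by limma). let-7e, between Mir99b and Mir125a, was at -0.17 (SE 0.15, adjusted p 0.388 by limma). Both let-7a and let-7c can also come from genes outside these clusters, and the differences between the let-7 miRs and their neighbours were not tested. let-7a and let-7c differ at 1 base, and cross-hybridisation between them was not tested either. Of this list, 0 were called higher and 2 lower of 3 tested, against 18.5% and 17.9% of all 162 miRs, with a median of -0.57 against -0.04.

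Of the 3 miRs with the same or a similar seed, miR-10a was higher in IRI (0.60, SE 0.19, adjusted p 0.0357 by limma), miR-10b was at 0.33 (SE 0.16, adjusted p 0.140 by limma) and miR-351 did not reach 200. Of the 6 strand names listed for the other arms of the hairpins, 4 were on the array, and none of the 4 reached 200. miR-125a-3p, for example, had a median of 119.3 in IRI and 119.7 in sham. The signal of the families that could be tested was therefore that of the 5 miRs alone.

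Markers of cell types are given beside these ratios, as counts against the 18.5% of all 162 miRs called higher and the 17.9% called lower. Of the miRs of tubule epithelium, 3 of the 4 tested were lower in IRI, among them miR-192 (-0.88, adjusted p 0.0125 by limma) and miR-194 (-0.76, adjusted p 0.00984 by limma). The summed level of that list of 5 was 8639 to 18068 in IRI and 14988 to 21714 in sham. All 3 tested leukocyte miRs were called higher. The mean log2 ratio was 1.52 for miR-155 (adjusted p 0.000887 by limma) and 0.92 for miR-150 (adjusted p 0.0257 by limma). miR-223 (adjusted p 0.0131 by limma) was above background in 9 of 17 samples, so that its size is not given. Its medians in IRI and in sham were below 200, so that it was tested through its highest pools. Its call is therefore open to the filter. The leukocyte list of 5 summed to 1447 to 3266 in IRI and 819.9 to 1177 in sham, while its defining members miR-142-3p and miR-142-5p did not reach 200.

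Of the 5 mesenchymal and smooth muscle miRs, 3 were higher, with miR-199a-3p at 1.87 (adjusted p 0.000573 by limma), and the list summed to 5660 to 14674 in IRI and 4293 to 12912 in sham. Among the 3, miR-199a-5p had medians of 156.2 in IRI and 121.9 in sham, so that its call is open to the filter as well. miR-143 and miR-145, the defining pair of smooth muscle, were at -0.13 and -0.13, means over ratios of both signs, from -0.89 to 0.60 for miR-143 and from -1.45 to 1.22 for miR-145. The sham level of miR-145 rose with the day, by 0.63 per doubling (adjusted p 0.0213 by limma). This call was lost with the empty-spot median subtracted, with median scaling of the channels and with median centring between arrays, where no sham slope was called. Endothelial miR-126-3p was at -0.03, the only 1 tested of 2, and that list summed to 5399 to 9107 in IRI and 4998 to 8830 in sham. Of the 3 erythroid miRs, miR-451 (-0.68) and miR-486 (-0.78) were tested and neither mean ratio was called, and the list summed to 327.7 to 1209 in IRI and 395.0 to 1491 in sham. The ratio also moved with the day for 3 of these markers, which are 3 of the 4 slopes called among the 162 miRs. The slope per doubling of the day was -0.79 for miR-451, -0.59 for miR-486 and 0.39 for miR-199a-3p, with adjusted p by limma of 0.0124, 0.0252 and 0.0257. All 3 calls were lost with median scaling of the channels, without a filter, and without day 21 or day 30, where no ratio slope was called. The part of these cell types in the ratios of miR-100 and the miR-125 pair was not tested.

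**Figure D4:**
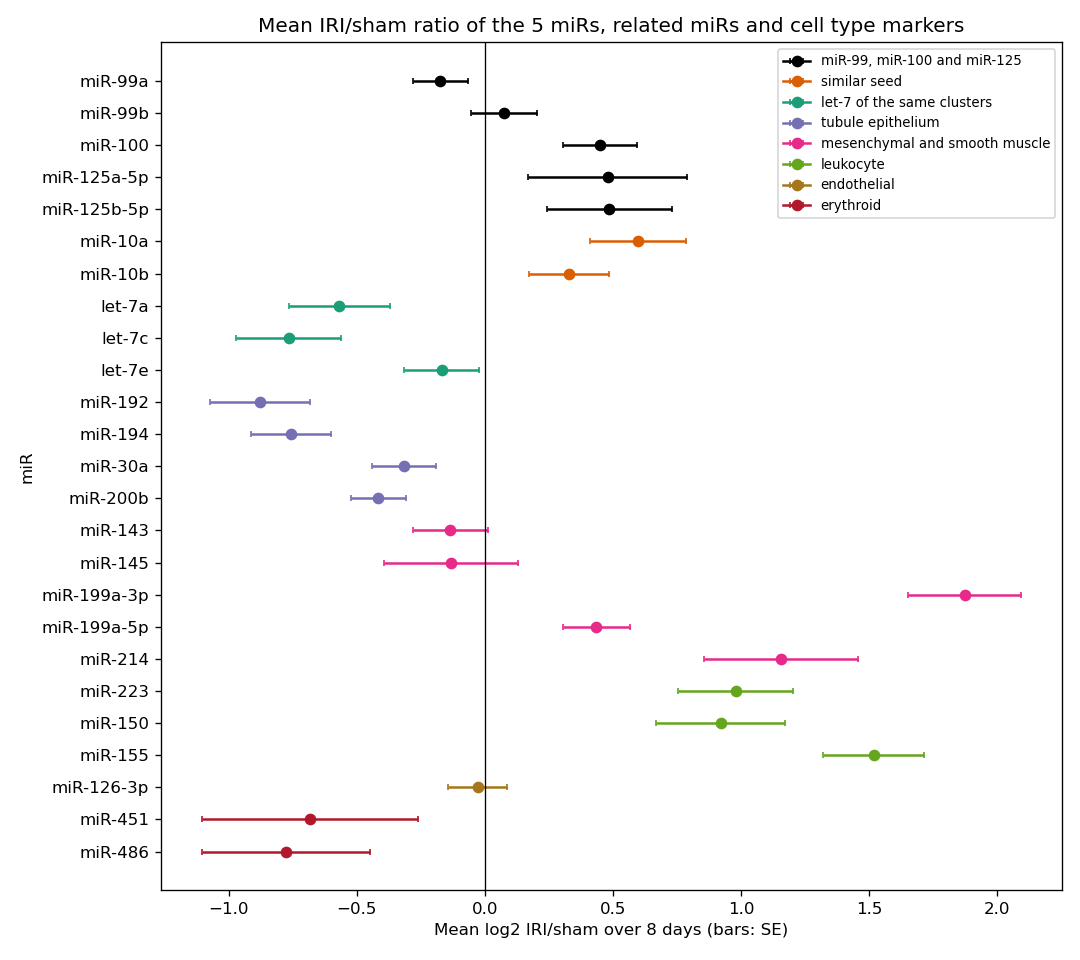
Mean log2 IRI/sham ratio over 8 days (horizontal axis) of each tested miR of the lists, with bars for the SE from limma and colours for the list. The 5 miRs are at the top, between -0.17 and 0.49, with the let-7 miRs of their clusters to the left of 0. Of the leukocyte miRs, miR-223 was above background in 9 of 17 samples and its point is uncertain.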

How the data were processed

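RNA of 17 kidney pools was measured on 9 arrays. RNA of 4 to 8 µg was size-fractionated, tailed and labelled, per the labels. The authors deposited linear scanner intensity of each spot, neither background-corrected nor normalized, and a table of processed linear intensity values, for which no source used here states the steps. Its columns correlated with the scanner values of their own channel at 0.981 to 0.9996, and with the other channel at 0.834 to 0.956, and their medians were 17 to 20. Scale and direction are thus known, and the scaling between arrays is not.

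Intensity was corrected with normexp (offset 50) fitted per channel to every spot, then averaged over the 6 spots of each miR. Channels were normalized by loess (span 0.3) with control probes, 5S RNA included, at weight 0. Mean log2 intensities were quantile-normalized over arrays, naive included, which forces the dim naive array onto the common distribution. limma 3.58.1 in R 4.3.3 tested the log2 IRI/sham ratio per array, so that the array is the block and the 8 days are the replicates, with Benjamini-Hochberg adjustment over 162 miRs and a threshold of 0.05. Exact tests used 256 sign flips or 40320 orders of the days, two-sided. p-values measure the spread between pools of different days.

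The miRs named are the 5 studied, those of the related and marker lists, and the 2 most correlated with each. The members and lists were chosen with earlier results of these data known. The array numbers pair each IRI with the sham pool hybridised beside it. The correlation of their deviations was -0.06 to 0.71. Day 10, which the study leaves out without a reason, was used. The number of arrays limits the precision. The scripts were tested on simulated data.

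Alternatives were subtraction of the empty-spot median, median scaling of channels, the processed values of the authors, a filter on the mean level, no filter, the median of the spots, limma with an intensity trend and robust variance, each day left out, no block, day for its log2, median centring between arrays and, chosen after seeing the data, a normexp offset of 16 and the arrays of days 10 and 30 left out together.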

Additional observations from a re-analysis of the deposited data

Results flagged for a closer look

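The levels in IRI, the levels in sham and the ratios of the 5 miRs gave 15 sets of 8 values. In 3 of them 1 value stood far from the others by Dixon's test at its 95% level, which chance does in about 1 independent set in 20. These sets are not independent, since each ratio is the difference of the levels of its array. The count therefore cannot be read against that rate. The log2 level of miR-99a on day 10 was 6.34 in IRI, against a median of 7.57, and 6.46 in sham, against a median of 7.89. In neither of these pools was miR-99a above background. The log2 level of miR-125b-5p in the sham pool of day 5 was 12.25, against a median of 11.16. The log2 IRI/sham ratio of that array minus the miR's median ratio over the other days was -1.74 for miR-125b-5p and -1.93 for miR-125a-5p. These differences were the 7th and the 6th lowest of 162 miRs, an order looked up after these values had been seen.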

How the results depend on the processing

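Of 361 values of the 5 miRs under the alternatives, 340 kept their direction and their side of the threshold, 6 lost the call, 5 gained it and 10 turned in sign. The cause was not tested. With the empty-spot median subtracted, the mean ratio was -0.50 for miR-99a (now called) and -0.0831 for miR-99b (turned), and 5 IRI and 0 sham level slopes were called over all miRs. With median scaling of the channels the mean ratio of miR-99a turned to 0.15 and the sham slope of miR-99b to -0.10, with 39 mean ratios called (30 higher and 9 lower, against 30 and 29, while the median mean ratio of all miRs moved from -0.04 to 0.15 and the median slope to 0.11) and 0 ratio, 0 IRI and 0 sham slopes. Without a filter, 100 mean ratios were called against 59 (miR-100 at 0.45 was not), with 0 ratio, 2 IRI and 1 sham slopes against 4, 14 and 2. Median centring between arrays turned the IRI slope of miR-125a-5p to -0.0145 and the sham slope of miR-99b to -0.0287, with 0 IRI and 0 sham slopes called. With the day in place of its log2, 14 ratio slopes were called, miR-100 passed at 0.0404 per day, the IRI slope of miR-125b-5p passed at 0.0391 per day, and the sham slope of miR-99b turned to -0.00445. A single sham slope, 1 of 162, was called with the processed values of the authors, and 1 with an intensity trend. Without the arrays of days 10 and 30, 27 mean ratios were called, miR-100 at 0.40 was not, and miR-99b turned to -0.0191. miR-100 does not pass the filter on the mean level, which gave it no value.

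Leaving out each day gave 26 to 59 called mean ratios, 0 to 19 ratio slopes, 2 to 22 IRI slopes and 0 to 4 sham slopes. The mean ratio was then -0.00659 to 0.171 for miR-99b, turning without day 30, 0.35 to 0.50 for miR-100, called without day 1, 3, 5 or 10 alone, and 0.34 to 0.69 for miR-125b-5p, called without day 5. The ratio slope of miR-100 was 0.17 to 0.34, called without day 1. The IRI slope of miR-99a was -0.00821 to 0.171, turning without day 30, and the sham slope of miR-99b was -0.0626 to 0.0686, turning without day 1.

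Without the block for the array, which sets aside the pairing of pools, 2 ratio slopes were called against 4, the mean ratio of miR-100 stayed called at 0.45 (adjusted p 0.0266 by limma), and no call of the 5 miRs changed in these ratio tests. With 1 pool per surgery and day and with miR-99a and miR-100 near the offset, differences between days and small ratios of these miRs are limited by signal over background.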
